A study of Homo sapiens with 12 samples.

Results

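The genes described here encode the nuclear subunits of the oxidative phosphorylation machinery, in BxPC-3 and CFPAC-1, 2 established human pancreatic cancer cell lines, and in the gemcitabine (GEM)-resistant lines derived from each, BxPC-3-GR from the former and CFPAC-1-GR from the latter. They were chosen by symbol alone, as the rows named like complex I subunits (NDUFA, NDUFB, NDUFC, NDUFS and NDUFV with a number), SDHA to SDHD, 8 UQCR genes, 11 COX genes and the ATP5 genes, without 43 names that end in P and digits as pseudogenes do. This gave 78 of the 58302 genes in the table, of which 36 belong to complex I, 4 to complex II, 8 to complex III, 12 to complex IV and 15 to complex V (ATP synthase). NDUFA4 and COX7A2L were placed with complex IV. The other 3 names are ATP5S, which is not a subunit of the enzyme, ATP5L2, and ATP5J2LP, a pseudogene that the pattern kept.

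Each of the 4 lines was sequenced in 3 replicates, 12 libraries in all, from total RNA. The resistant lines carry no engineered allele and differ from their parental lines by long culture in rising GEM concentrations, as the labels describe it. The labels call BxPC-3, CFPAC-1 and CFPAC-1-GR epithelial and BxPC-3-GR mesenchymal in morphology. Nothing in the labels says that the 3 libraries of a line came from separate cultures, so p values measure only the spread between these libraries, and each resistant line is a single selected population. Between 7 and 8 of 8 markers of pancreatic ductal epithelium reached a mean of 1 FPKM in each line, and of 4 leukocyte markers PTPRC, the defining one, was at 0 in all 4 means, with LYZ at 7.02 FPKM in CFPAC-1 and 1.34 in CFPAC-1-GR. Mesenchymal markers went both ways in BxPC-3-GR, where 3 of 7 reached that mean against 4 in BxPC-3. From BxPC-3 to BxPC-3-GR, VIM went from 6.59 to 0.813 FPKM and SNAI2 from 41.2 to 23.03, whereas CDH2 went from 1.99 to 5.396 and FN1 from 5.301 to 9.09.

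Oxidative phosphorylation passes electrons from NADH (complex I) and succinate (complex II) through complex III to oxygen at complex IV, and complex V uses the proton gradient built on the way to make ATP. Most subunits are encoded in the nucleus and imported, whereas a core set is encoded in mitochondrial DNA, so an assembled complex (II excepted) needs transcripts of both genomes. The nuclear genes are transcribed from many chromosomes, and NRF1, GABP (an ETS family factor) and YY1 are known regulators of many of them.

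FPKM (fragments per unit of gene length and of mapped fragments) is a share of the library, so a lower value in a line can stand for less RNA of the gene per cell or more RNA of other genes, and the 2 cannot be told apart. The steps between low values implied 12600000 to 25200000 mapped fragments per library. At the lowest library of each member tested in the CFPAC-1 lines, this depth gave a median of 534 fragments and no fewer than 109, if the values are divided by joined exon length. NDUFA3 stayed between 0 and 0.0519 FPKM in the 12 libraries and NDUFA6 between 0.447 and 0.875. Together with ATP5L2 and ATP5J2LP they fell below the minimum mean of 1 FPKM and were not tested, which left 74 members for the BxPC-3 lines and 73 for every other comparison (ATP5S passed in the BxPC-3 lines alone). Among the tested members, mean levels over the 12 libraries ran from 2.39 FPKM for NDUFB5 through 261 for NDUFS5 to 509 for COX8A, the gene of a small single-pass subunit of complex IV. Levels between genes depend on the length by which the authors' values are divided, taken here as the joined exon length. This divisor was not checked in genes with several transcripts.

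Counting was uncertain for part of the set. 11 of the 78 had at least 10% of their combined FPKM in rows of their own pseudogenes, among them SDHD (83.8%), COX6A1 (81.5%), NDUFA5 (80.2%), UQCRFS1 (51.5%), NDUFV2 (34.5%), SDHA (25.2%), NDUFB4 (23.1%), COX7C (13.5%) and ATP5G2 (11.2%). Exons of 22 members overlap those of another gene with a mean of at least 1 FPKM, such as RBM10 at NDUFB11 and EEF1B2 at NDUFS1 on the opposite strand, and whether strand was used is not given in the sources used here. Values of all these genes may hold reads of the copy or the neighbor.

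By the median over the members, CFPAC-1 carried more of these transcripts than BxPC-3, and CFPAC-1-GR lay near the level of the BxPC-3 lines. The median over the 73 members was 15.4 ± 1.44 FPKM in BxPC-3, 14.02 ± 0.414 in BxPC-3-GR, 22.8 ± 1.29 in CFPAC-1 and 14.9 ± 1.38 in CFPAC-1-GR (SD, n = 3). The 3 CFPAC-1 libraries lay between 21.9 and 24.3 FPKM and all others between 13.7 and 17.0, so CFPAC-1 stood apart and the other 3 lines overlapped. Taken by complex, the medians of log2(FPKM + 1) were above those of every other line in complexes I and III alone. In complex II CFPAC-1 was lower than BxPC-3, at 3.51 to 3.67 against 4.11 to 4.3. In complexes IV and V the libraries of the parental lines overlapped. As a share of summed FPKM, the 78 genes took 1.5% to 1.67% in CFPAC-1, 0.783% to 0.844% in CFPAC-1-GR, 0.713% to 0.804% in BxPC-3 and 0.655% to 0.705% in BxPC-3-GR. A sum weighs abundant genes most. COX8A alone held 1206, 1066 and 1034 of the members' 4519, 4062 and 4089 FPKM in CFPAC-1. In CFPAC-1-GR it held 307, 356 and 332 of 2082, 2383 and 2146. The share of the 13 subunits encoded in mitochondrial DNA moved the other way, with 6.13%, 11.3% and 12.1% in the CFPAC-1 libraries, 24.6% to 26.2% in CFPAC-1-GR, 35.04% to 37.9% in BxPC-3 and 34.9% to 37.4% in BxPC-3-GR. CFPAC-1 replicate 1 was thus set apart from its replicates in mitochondrial transcripts. The counts of members called in CFPAC-1-GR against CFPAC-1 and between the parental lines are also given without it. Other results that rest on CFPAC-1 include it unless stated.

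**Figure D1:**
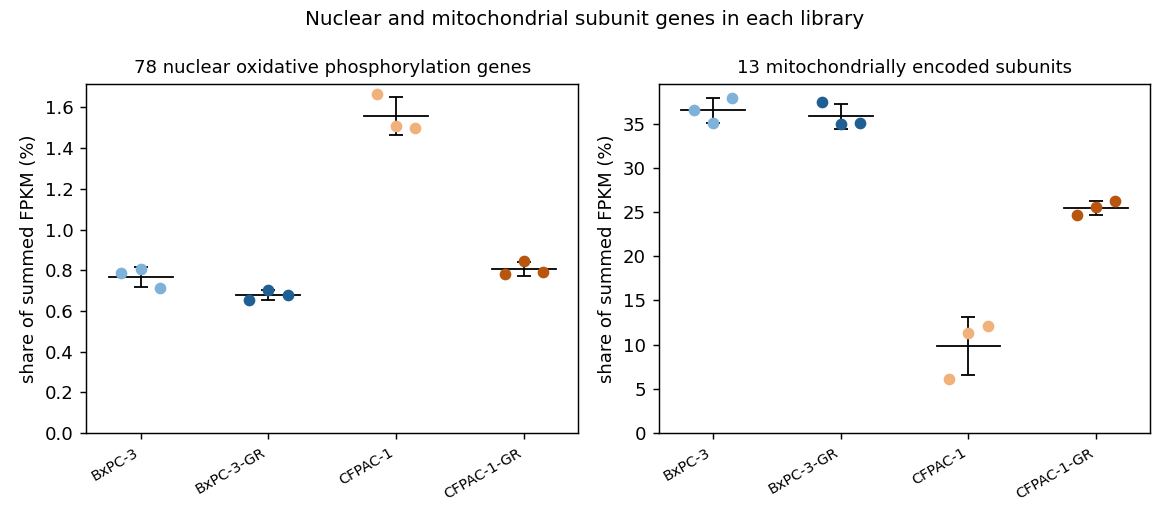
Share of summed FPKM (%) taken by the 78 nuclear genes (left) and by the 13 mitochondrially encoded subunits (right) in each library; points are libraries, bars the mean and SD of 3. CFPAC-1 is the highest line on the left (1.5% to 1.67%) and the lowest on the right (6.13% to 12.1%).

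In CFPAC-1-GR against CFPAC-1, subunit genes of complexes I, III, IV and V were mostly lower, while complex II was split. Of 73 members tested, 48 fell and 12 rose at a limma adjusted p below 0.05, against 34.9% of all 12051 genes that fell and 44.6% that rose. The members' median log2FC was −0.55 where that of all genes was 0.13. All 22 members that were significantly differentially expressed (SDE, adjusted p below 0.05 and absolute log2FC above 1) were lower, against 11.7% of all genes SDE lower and 20.5% SDE higher. By complex, 24 fell and 5 rose of 34 in complex I, 1 fell and 2 rose of 4 in complex II, 5 fell and 2 rose of 8 in complex III, 8 fell and 1 rose of 12 in complex IV, and 10 fell and 2 rose of 15 in complex V. Without CFPAC-1 replicate 1, 43 fell, 11 rose, 19 were SDE and the median was −0.54.

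**Figure D2:**
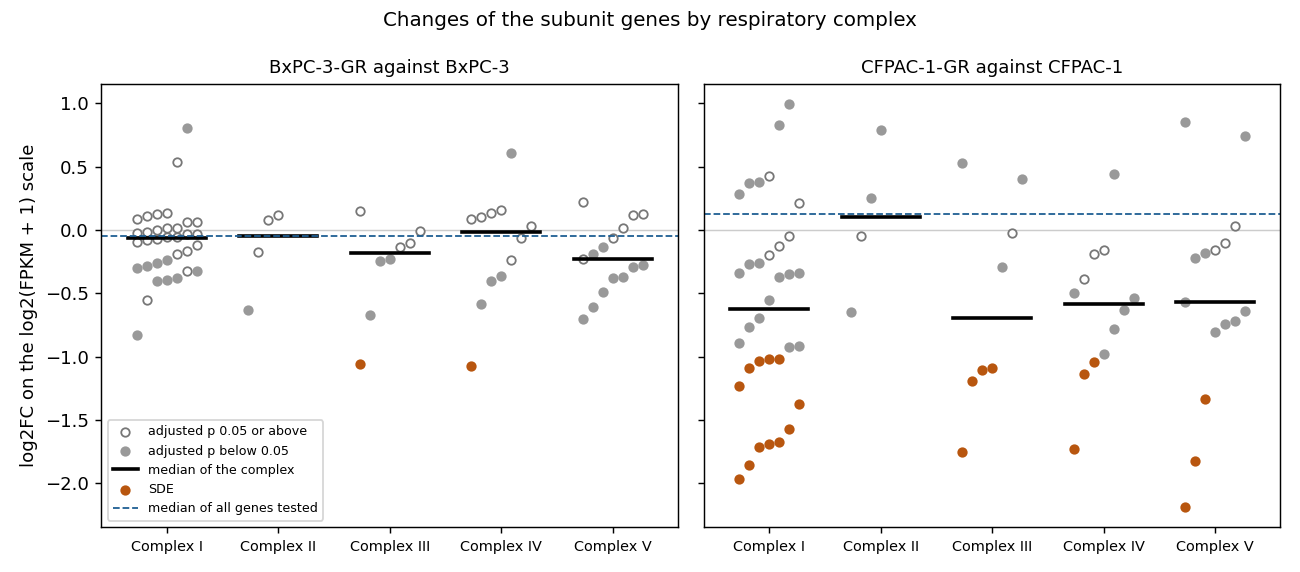
log2FC of each subunit gene (log2(FPKM + 1) scale) by respiratory complex in BxPC-3-GR (left) and CFPAC-1-GR (right) against the parental line; open points did not pass an adjusted p of 0.05, grey points did, orange points were SDE, black bars are medians of a complex and the dashed line the median of all genes tested. Orange points number 2 on the left and 22 on the right, all below 0.

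The most abundant member was also among those that fell most. COX8A (GRCh38 chr11:63974607-63976543) read 1206, 1066 and 1034 FPKM in the CFPAC-1 libraries and 307, 356 and 332 in CFPAC-1-GR. Its lowest CFPAC-1 library was thus far above the highest CFPAC-1-GR one, and the log2FC was −1.73 (SE 0.09, limma adjusted p = 7.6e-06). In complex IV, COX5B, a subunit on the matrix side, went from 137, 97.5 and 134 to 54.7, 59.7 and 50.2 FPKM (log2FC −1.14, SE 0.15). COX6B1, which faces the intermembrane space, fell from 109.6, 88.5 and 86.2 to 43.3, 46.9 and 45.6 FPKM (log2FC −1.04, SE 0.10). For both genes the 2 lines did not overlap. NDUFA4, first assigned to complex I and now counted with complex IV, fell from 16.3, 17.4 and 17.6 to 11.4, 11.1 and 11.8 FPKM (log2FC −0.54). COX7A2L, a supercomplex assembly factor, read 9.74, 7.03 and 16.4 FPKM in CFPAC-1 and 10.4, 11.1 and 6.74 in CFPAC-1-GR, libraries that overlapped (log2FC −0.16, limma adjusted p = 0.64). COX7B was the complex IV gene that rose (log2FC 0.44, SE 0.16), at a limma adjusted p of 0.042 that did not hold in 5 of the 6 fits that left out 1 library, with log2FC from 0.27 to 0.60.

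In complex I, 2 accessory subunits of the membrane arm led the decrease. NDUFB11 (GRCh38 chrX:47142216-47145504) read 147, 145 and 147 FPKM in CFPAC-1 and 37.2, 39.9 and 33.3 in CFPAC-1-GR (log2FC −1.97, SE 0.08, limma adjusted p = 6.3e-06). NDUFB7 went from 444, 383 and 381 to 106, 114 and 111 FPKM (log2FC −1.86, SE 0.08). For both genes every CFPAC-1-GR library was below every CFPAC-1 library. Among the core subunits, which carry the redox groups of the matrix arm, NDUFS7 went from 7.86, 7.43 and 7.05 to 1.61, 1.57 and 1.53 FPKM (log2FC −1.72), NDUFS8 from 21.4, 21.9 and 19.9 to 5.99, 5.37 and 6.11 (log2FC −1.69) and NDUFV1, the flavin subunit that takes electrons from NADH, from 24.3, 19.7 and 19.8 to 6.96, 7.75 and 8.002 (log2FC −1.37). NDUFS1, the largest core subunit, went the other way, from 4.77, 4.44 and 4.01 to 8.905, 8.31 and 8.57 FPKM (log2FC 0.83, SE 0.08, limma adjusted p = 5.7e-05). NDUFA5, an accessory subunit of the matrix arm, rose from 1.44, 1.11 and 1.28 to 4.23, 3.03 and 3.43 FPKM (log2FC 0.996, SE 0.11), although rows of its pseudogenes held most of the combined signal. So subunits of the same arm were higher and lower in CFPAC-1-GR on this scale. After a correction for GC content and length, NDUFS1 was at −0.34 and NDUFA5 at −0.45, and no complex I gene passed as higher. Before that correction, the other SDE members of the complex were NDUFA13, NDUFA11, NDUFB8, NDUFA2, NDUFA7, NDUFC1 and NDUFS6, with log2FC from −1.68 to −1.02.

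Succinate dehydrogenase, which also works in the citric acid cycle and has no mitochondrially encoded subunit, was split gene by gene. SDHA, the flavoprotein, fell from 20.96, 21.6 and 20.8 to 12.9, 14.3 and 12.3 FPKM (log2FC −0.65, SE 0.07, limma adjusted p = 0.00017). SDHB, the iron-sulfur subunit, read 41.9, 39.6 and 38.1 and 38.1, 40.4 and 37.4 FPKM, which overlapped (log2FC −0.045, SE 0.07, limma adjusted p = 0.57). For the membrane anchors, SDHC read 6.39, 5.57 and 4.93 and 7.14, 6.79 and 6.63 FPKM (log2FC 0.25, limma adjusted p = 0.043) and SDHD 3.58, 4.33 and 4.08 and 7.88, 8.104 and 6.95 FPKM (log2FC 0.79, limma adjusted p = 0.00015). Both anchors were thus higher in CFPAC-1-GR on this scale, but SDHC was −0.01 with median-of-ratios and −0.12 with upper-quartile scaling, and its call was lost in 5 of the 6 fits that left out 1 library.

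In complex III, the core protein gene UQCRC1 fell from 71.9, 66.8 and 64.1 to 19.1, 20.5 and 18.2 FPKM (log2FC −1.76, SE 0.08, limma adjusted p = 6.3e-06). Its partner UQCRC2 rose from 7.83, 7.75 and 6.46 to 9.67, 10.3 and 9.94 FPKM (log2FC 0.40, SE 0.09, limma adjusted p = 0.0041), so the transcripts of the 2 core proteins moved apart on this scale. After a correction for GC content and length both were under 0, at −0.98 and −0.15. The small subunit genes UQCRQ (log2FC −1.19), UQCR10 (−1.11) and UQCR11 (−1.09) were SDE lower, and UQCRB was higher (0.53). With upper-quartile scaling neither increase passed, at log2FC of 0.01 for UQCRC2 and 0.14 for UQCRB.

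In complex V, the delta subunit of the central stalk, ATP5D (GRCh38 chr19:1241746-1244826), had the largest decrease of the 73 members before any correction. It read 15.9, 21.6 and 19.1 FPKM in CFPAC-1 and 2.72, 2.84 and 4.69 in CFPAC-1-GR (log2FC −2.19, SE 0.19, limma adjusted p = 4.1e-05). The gamma subunit of the same stalk, ATP5C1, rose from 27.2, 23.3 and 26.1 to 42.5, 44.8 and 42.5 FPKM (log2FC 0.74), as did ATP5F1, subunit b of the peripheral stalk, from 17.7, 18.3 and 19.4 to 29.98, 37.3 and 35.5 FPKM (log2FC 0.85). For none of these 3 genes did the lines overlap. ATP5G1, ATP5G2 and ATP5G3 all encode subunit c of the rotor ring and give the same mature protein. ATP5G2 fell from 62.7, 55.03 and 56.6 to 15.1, 16.7 and 15.2 FPKM (log2FC −1.83, SE 0.08). ATP5G1 fell from 35.7, 30.7 and 28.5 to 12.1, 11.3 and 12.3 FPKM (log2FC −1.33, SE 0.10), and ATP5G3 from 30.7, 26.9 and 24.2 to 15.7, 17.3 and 15.4 FPKM (log2FC −0.72, SE 0.10). All 3 subunit c genes were thus lower in CFPAC-1-GR, each without overlap and each at a limma adjusted p of 0.00048 or less.

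**Figure D3:**
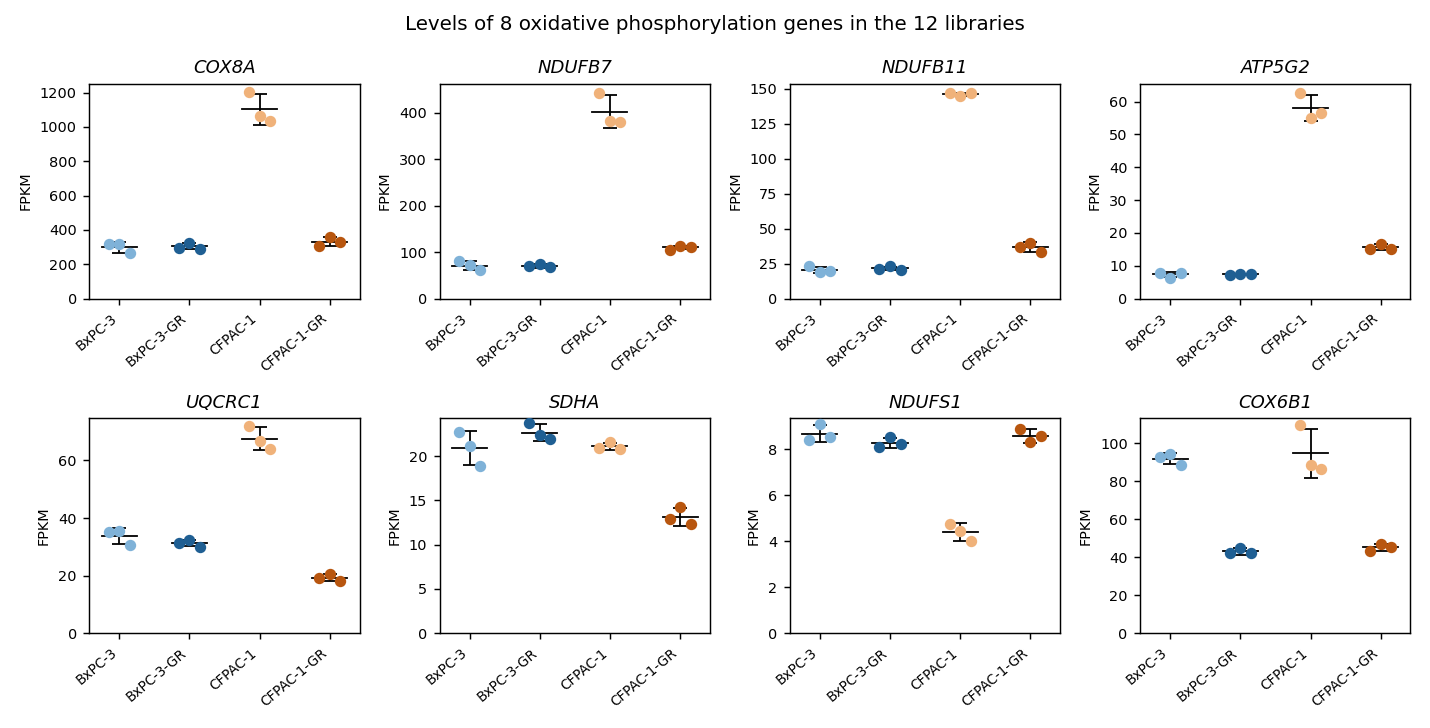
FPKM of 8 subunit genes in the 12 libraries; points are libraries, bars the mean and SD of 3 for each line. In COX8A, NDUFB7, NDUFB11, ATP5G2 and UQCRC1 the CFPAC-1 libraries lie above all others, SDHA is lowest in CFPAC-1-GR, NDUFS1 is lowest in CFPAC-1, and COX6B1 is lower in both resistant lines.

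Changes in CFPAC-1-GR followed the GC content of the transcript in all genes, and this moved with the results above. Across the 12030 tested genes with a GC content, Spearman's rank correlation between log2FC and GC content was −0.78, and across the 73 members it was −0.71 (a description across genes, which are not independent). Members with a GC content of at least 50% fell in 26 of 27 cases, against 65.1% of all such genes. Below 50%, 22 of 46 members (47.8%) fell and 12 (26.1%) rose, where 7.67% of all such genes fell and 75.1% rose. The members thus lay on the lower side of the trend at both ends. In bins of 4 percentage points of GC content, 72 of 73 members were below the median log2FC of their bin. In the bin from 40% to 44%, where the median of all genes was 0.90, the 17 members had a median of −0.16, and in the bin from 60% to 64% the values were −0.85 and −1.72. What part the GC trend has in each gene's change was not tested.

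**Figure D4:**
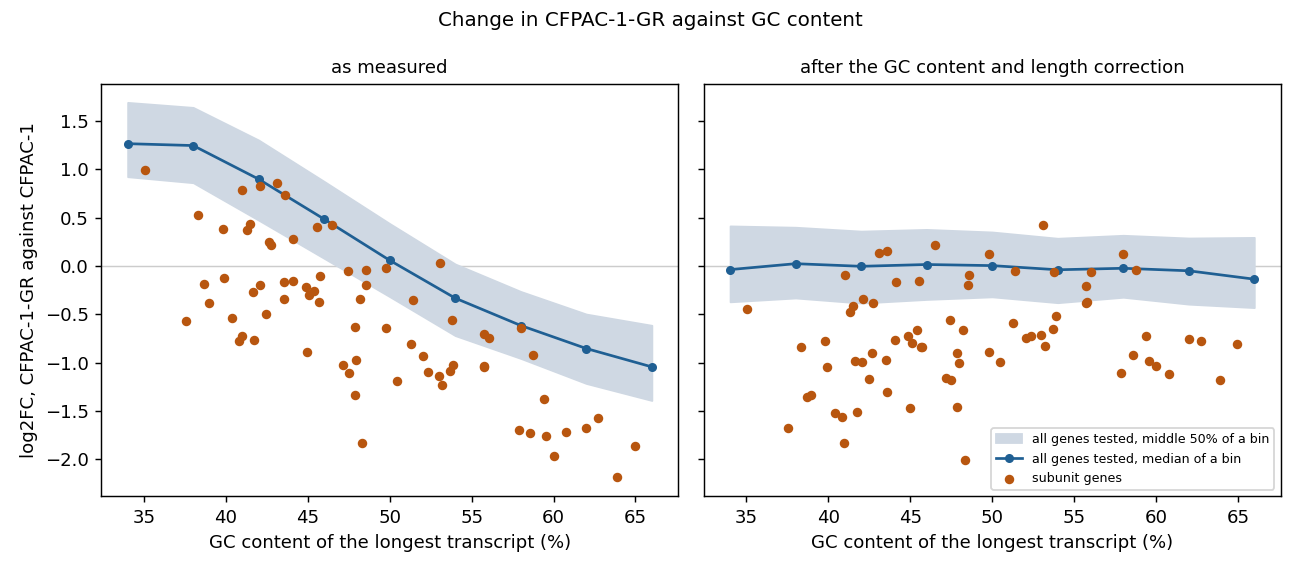
log2FC in CFPAC-1-GR against the GC content (%) of the longest transcript, as measured (left) and after the GC content and length correction (right); the line and band are the median and middle 50% of all tested genes in bins of 4 percentage points and orange points are subunit genes. The subunit genes sit below the line in 72 of 73 cases on the left and 67 of 73 on the right.

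After a spline on GC content and length was taken out of the log ratios, nearly all calls among the members were decreases. Of 73 members, 55 then fell and 1 rose, against 30.6% and 29.6% of all genes, and the median was −0.77 where that of all genes was −0.02. ATP5J, subunit F6 of the peripheral stalk, was the gene that rose, with a corrected log2FC of 0.43. Its exons overlap those of GABPA on the opposite strand (mean 4.81 FPKM), so its value may hold reads of GABPA. By complex, 26 of 34 fell in complex I, 2 of 4 in complex II, 6 of 8 in complex III, 11 of 12 in complex IV and 10 of 15 in complex V. All 12 members that had risen lost the call, and among them NDUFA5 (−0.45), NDUFS1 (−0.34), SDHC (−0.90), SDHD (−0.087), UQCRB (−0.84), UQCRC2 (−0.15) and COX7B (−0.41) were then below 0. Counted anew after the correction, 20 members were SDE, all lower, where 478 of 12030 genes were SDE lower and 564 SDE higher. Of the 22 members SDE before it, 8 were still SDE, among them ATP5G2 (−2.004), ATP5G1 (−1.46), ATP5D (−1.18) and NDUFB11 (−1.03), and COX8A was at −0.92. NDUFA7 (limma adjusted p = 0.1) and NDUFS6 (0.15) no longer passed. With median-of-ratios scaling 58 fell and 6 rose, and with upper-quartile scaling 58 fell and 5 rose, since these scalings moved the median of all genes to −0.13 and −0.24 and that of the members to −0.85 and −0.98. NDUFA2, COX6B1, NDUFA7, NDUFC1 and NDUFS6 went inside an absolute log2FC of 1 when 1 library was left out. For the first 2 this was CFPAC-1 replicate 1 alone. For NDUFA7 and NDUFS6 it was that library or any of several others, and for NDUFC1 it was others only. All 22 kept an adjusted p below 0.05 in these fits.

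Promoter sequence is shown for the member of each complex that had the lowest log2FC in CFPAC-1-GR among those with a searched motif in the 120 bases before the RefSeq transcription start, where that start lay within 30 bases of the annotated gene start. In complex II no member met this. The sequences are from RefSeq (GRCh38.p14), 5′ to 3′ on the strand of the gene, and capitals mark the motif. NDUFB7 is at chr19:14572067-14572186 (minus strand), UQCR11 at chr19:1605463-1605582 (minus), COX8A at chr11:63974500-63974619 (plus) and ATP5H, subunit d of the peripheral stalk of complex V (log2FC −0.22), at chr17:75046970-75047089 (minus). The last bases of UQCR11, ATP5H and COX8A, 28, 16 and 13 in number, lie inside the gene as annotated in GENCODE. The capitals are ETS motifs in all 4 genes, with 2 NRF1 motifs nearest the start in UQCR11.
NDUFB7: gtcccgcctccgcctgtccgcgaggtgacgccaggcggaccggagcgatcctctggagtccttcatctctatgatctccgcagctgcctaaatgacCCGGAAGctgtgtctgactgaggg
UQCR11: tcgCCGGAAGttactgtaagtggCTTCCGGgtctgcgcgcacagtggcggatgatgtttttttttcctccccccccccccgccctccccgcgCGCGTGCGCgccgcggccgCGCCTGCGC
COX8A: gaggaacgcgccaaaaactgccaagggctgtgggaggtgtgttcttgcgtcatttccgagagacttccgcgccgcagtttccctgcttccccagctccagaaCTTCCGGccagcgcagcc
ATP5H: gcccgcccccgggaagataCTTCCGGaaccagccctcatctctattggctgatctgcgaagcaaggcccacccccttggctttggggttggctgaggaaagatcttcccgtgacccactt

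Motifs were searched on both strands in the 250 bases before and 50 after each RefSeq start, which the table held for 62 of the 78 members. The NRF1 motif (GCGCANGCG, the leading letters of the site this factor is known for) was in 21 members (33.9%) and in 9.02% of all 27305 genes with a window. The ETS motif (CCGGAAG) was in 20 members (32.3%) against 12.2% of genes, and the YY1 motif (AAGATGGCG) in 9 (14.5%) against 2.14%. ATP5G1 and NDUFB11 held none of the 3. A match is a run of letters and not a shown site. GABPA and TFAM, a mitochondrial transcription factor, rose in CFPAC-1-GR (log2FC 1.71 and 1.63) and POLRMT, the mitochondrial RNA polymerase, fell (−1.66), and after the correction these were at 0.45, 0.42 and −0.81. GABPA had a mean of 0.746 FPKM in CFPAC-1 and 5.21 in CFPAC-1-GR, and an SE of 0.34. Of the other factors with a searched motif, YY1 rose (1.07, 0.69 corrected) and NRF1 did not pass (−0.044, limma adjusted p = 0.73). Exons of GABPA overlap those of the member ATP5J on the opposite strand, so the 2 values may share reads. Of 11 tested regulators of the pathway, 5 rose and 3 fell, beside 44.6% and 34.9% of all genes. After the correction 2 rose and 3 fell, beside 29.6% and 30.6% of all genes.

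Assembly factors and other genes of the pathway were called in both directions. Among assembly factors in CFPAC-1-GR, 6 rose and 5 fell of 12 for complex I, 1 and 2 of 4 for complex II, 2 and 3 of 6 for complex III, 12 and 8 of 23 table rows for complex IV and 2 and 1 of 3 for complex V, beside the 44.6% and 34.9% of all genes given above. After the correction these counts were 1 and 8, 0 and 3, 1 and 4, 4 and 11, and 0 and 2, beside 29.6% and 30.6% of all genes. LRPPRC, which stabilizes mitochondrial messenger RNA, rose by 1.95 on the log2 scale (0.88 corrected), whereas SCO2, a copper chaperone of complex IV that has 2 rows in the table, was at −1.58 (−0.50 corrected) in one and at −0.35 (0.74 corrected) in the other (limma adjusted p = 0.053 before the correction). Among 7 other tested genes of the pathway that the symbol pattern does not catch, not all of them subunits, 2 rose and 4 fell (0 and 5 corrected). Of these, CYC1, cytochrome c1 of complex III, was at −1.80 (−0.75 corrected). The 13 mitochondrially encoded subunits went against the nuclear ones, with 12 that rose, 1 that fell and a median log2FC of 1.86 (11, 1 and 1.32 corrected).

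In BxPC-3-GR against BxPC-3, a minority of the members passed the test. Of 74 tested, 27 fell and 2 rose at a limma adjusted p below 0.05, against 31.5% of 11710 genes that fell and 26.2% that rose, and the median log2FC was −0.10 (−0.05 for all genes). The share that fell was near that of all genes, and the share that rose was well under it. COX6B1 and UQCRFS1 were SDE, both lower, against 3.62% of all genes SDE lower and 4.14% SDE higher. By complex, 9 fell of 34 in complex I, 1 of 4 in complex II, 4 of 8 in complex III, 4 of 12 in complex IV and 9 of 15 in complex V. With the GC content and length correction, 25 fell and 3 rose, against 30.9% and 28% of all genes.

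COX6B1 (GRCh38 chr19:35648223-35658861) read 92.6, 94.2 and 88.7 FPKM in BxPC-3 and 42.1, 45.01 and 42.02 in BxPC-3-GR (log2FC −1.08, SE 0.05, limma adjusted p = 2.7e-05). UQCRFS1, the Rieske iron-sulfur protein of complex III (GRCh38 chr19:29205321-29213541), went from 50.1, 54.04 and 49.7 to 23.6, 24.1 and 24.4 FPKM (log2FC −1.06, SE 0.05, limma adjusted p = 2.8e-05). In each case every BxPC-3-GR library was below every BxPC-3 library, and both stayed SDE in all 6 fits that left out a library. NDUFB9, in the membrane arm of complex I, rose from 12.8, 17.3 and 12.6 to 24.1, 27.1 and 24.97 FPKM (log2FC 0.80, SE 0.13) and COX7C of complex IV from 6.81, 6.96 and 7.101 to 12.97, 9.48 and 11.3 FPKM (log2FC 0.61, SE 0.11). These were the members that rose. Next among the decreases came NDUFB10 (−0.83), ATP5G1 (−0.70), UQCRC2 (−0.67), SDHB (−0.63), ATP5E (−0.61), the epsilon subunit of the ATP synthase stalk, and NDUFA4 (−0.59). In complex II, SDHB read 46.3, 44.8 and 40.2 FPKM in BxPC-3 and 27.2, 29.8 and 26.5 in BxPC-3-GR, and SDHA (0.11), SDHC (0.076) and SDHD (−0.17) did not pass. Of the subunit c genes, ATP5G1 alone passed, from 9.51, 9.65 and 8.95 to 5.36, 5.51 and 5.24 FPKM, with ATP5G2 at 0.014 and ATP5G3 at −0.23. Without BxPC-3 replicate 1, ATP5G3 passed as well, at −0.33.

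Of the members that fell in BxPC-3-GR, 26 had neighbors (at least 3 tested genes within 1 Mb), and the median of the neighbors was below 0 for 20 of them and above 0 for 6. Both members that rose had a neighbor median above 0. Over all 72 members with neighbors, 36 medians were below 0. Around COX6B1, all 21 tested genes within 1 Mb were below 0, 19 of them fell, and their median log2FC was −0.70. Around UQCRFS1, 4 neighbors had a median of −1.06, close to the gene's own value. The 11 neighbors of NDUFB9 were all above 0 with a median of 0.79, and 9 of them rose. NDUFB10 had 52 neighbors with a median of −0.53 and SDHB 18 with −0.42. Among the 6 that fell with neighbors above 0 were ATP5G1, with 21 neighbors at a median of 0.01, ATP5I (−0.38 with 12 at 0.16) and NDUFA5 (−0.38 with 3 at 0.12). COX6C, which did not pass, was at 0.16 and had 8 at 0.92. Over the same 72 members, Spearman's rank correlation between the member and the median of its neighbors was 0.62 (0.59 after the correction), a description over genes that share libraries and, for some, neighbors. In CFPAC-1-GR the same correlation was 0.64 and fell to −0.09 after the correction. In BxPC-3-GR, whole chromosomes also differed. The median log2FC was 0.42 over 407 tested genes of chromosome 8, which holds NDUFB9 and COX6C. It was −0.42 over 517 of chromosome 16 (NDUFB10) and −0.15 over 705 of chromosome 19 (COX6B1 and UQCRFS1). Agreement with neighbors was not computed for all tested genes, so it is not shown to be particular to the members. Copy number was not measured here, and what part position has in each change was not tested.

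**Figure D5:**
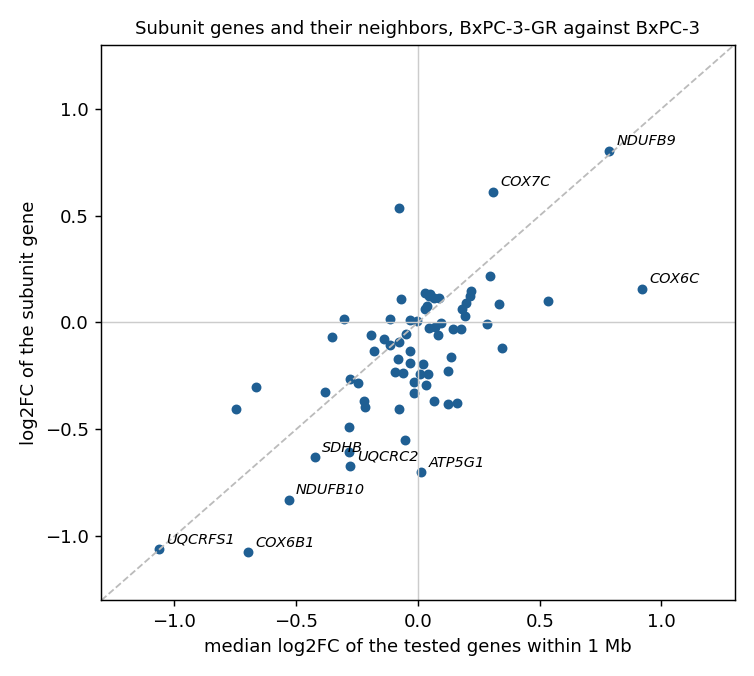
log2FC of each subunit gene in BxPC-3-GR (vertical) against the median log2FC of the tested genes within 1 Mb of it (horizontal), for 72 genes; the dashed line marks equal values. UQCRFS1 and NDUFB9 lie close to the line, COX6B1 below it, and ATP5G1 (−0.70 against 0.01) and COX6C (0.16 against 0.92) away from it.

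The 2 parental lines already differed in these genes. In CFPAC-1 against BxPC-3, 47 members were higher and 16 lower of 73, against 39.4% and 44.8% of 11842 genes, and the median log2FC was 0.49 (−0.10 for all genes). By complex, 25 were higher and 6 lower of 34 in complex I, 1 and 1 of 4 in complex II and 4 and 4 of 8 in complex III. In complex IV 8 were higher and 3 lower of 12, and in complex V 9 and 2 of 15. SDE members numbered 20 higher and 5 lower, against 19.8% and 24.7% of all genes. ATP5G2 had the largest difference, with 7.78, 6.36 and 7.82 FPKM in BxPC-3 and 62.7, 55.03 and 56.6 in CFPAC-1 (log2FC 2.83, SE 0.09, limma adjusted p = 5.2e-07). NDUFB11 (2.77) and NDUFB7 (2.49) followed. UQCRC2 was the lowest, with 29.8, 31.9 and 34.3 FPKM in BxPC-3 and 7.83, 7.75 and 6.46 in CFPAC-1 (log2FC −1.99), before SDHD (−1.68) and NDUFV2 (−1.401), a core subunit of complex I. After the correction 48 were higher and 15 lower with a median of 0.57, against 37.2% and 39.5% of all genes, and 22 were SDE higher and 2 SDE lower, against 13.5% and 13.1%. Of the 25 SDE members before it 13 were still SDE, with NDUFB11 at 1.701, NDUFB7 at 1.35, SDHD at −0.85 and NDUFV2 at −0.61, the last 2 inside an absolute log2FC of 1. Without CFPAC-1 replicate 1, 43 were higher and 14 lower. This comparison and that of CFPAC-1-GR use the same CFPAC-1 libraries, so their opposite signs are not independent of each other.

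The responses of the 2 lines were compared by an interaction term over the 12 libraries. In 38 of 73 members the log2FC was larger in BxPC-3-GR and in 16 larger in CFPAC-1-GR at a limma adjusted p below 0.05, against 31.6% and 44.9% of 12210 genes. ATP5D (−2.31, SE 0.23), NDUFB11 (−2.03, SE 0.12) and NDUFB7 (−1.86, SE 0.14) had the largest differences in the first direction. ATP5D and NDUFB11 had log2FC of 0.12 and 0.063 in BxPC-3-GR, which did not pass, and fell in CFPAC-1-GR. In the second direction were NDUFA5 (1.38), UQCRC2 (1.07) and ATP5F1 (1.04). After the correction the counts were 49 and 9, against 31.7% and 31.6% of all genes, with ATP5D at −1.24, NDUFB11 at −1.09, NDUFB7 at −0.77, NDUFA5 at −0.020, UQCRC2 at 0.54 and ATP5F1 at 0.30. For COX6B1, which fell in both lines, the 2 log2FC were −1.08 and −1.04, and −1.002 and −0.37 after the correction, when the second was no longer SDE and the difference was 0.65 (limma adjusted p = 0.00011). Past both an adjusted p of 0.05 and an absolute difference of 1 were 21 members, 18 in the first direction and 3 in the second, against 38% of all genes (14.4% and 23.6%). Of these 21, 6 were still past both after the correction. Counted anew over the 73 members, 17 were then past both, all in the first direction, against 18.4% of all genes. Over the 73 members tested in both lines, 19 fell in both, 70.4% of the 27 that fell in BxPC-3-GR and 39.6% of the 48 in CFPAC-1-GR, and 0 rose in both. Of all 73, 65.8% fell in CFPAC-1-GR, so the 70.4% lay near that share. As 2 members rose in BxPC-3-GR and 16.4% of the 73 in CFPAC-1-GR, the 0 that rose in both was no result about the members. The share of all genes called in both lines was not counted.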

How the data were processed

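Transcriptomes of the 4 lines were sequenced in triplicate. The authors deposited FPKM (12 libraries, 58302 genes), made on GRCh38 with Ensembl release 91. The submitters' processing notes list Trimmomatic 0.27, FastQC 0.10.1 and TopHat2 2.0.8 and the builds hg19 and GRCh38, and the program that made the FPKM values is not given in the sources used here. Gene positions, joined exon lengths and the GC content of the longest transcript were taken from GENCODE release 29, in which 58039 genes were found.

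Lines were compared on log2(FPKM + 1), which understates changes of low genes. The test was limma 3.58.1 (lmFit and eBayes, R 4.3.3) over genes whose mean reached 1 FPKM among the libraries fitted, and p values were adjusted by Benjamini-Hochberg over every gene tested. SDE required both an absolute log2FC above 1 and an adjusted p below 0.05. An exact 2-sided permutation test of 3 against 3 libraries cannot go below 0.1, so significance rests on the pooled variance of limma. For the correction, a spline with 5 degrees of freedom on GC content and another on length were fitted to the log ratios and removed. The procedure was run on simulated data with 200 changed genes. In CFPAC-1-GR 2473 genes were SDE higher, so that simulation does not measure how the procedure performs there. Depth was read from the steps of low values in genes with a single transcript, of which 99.2% to 99.8% were whole multiples (tolerance 0.05).

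The members, gene lists and alternatives were chosen with earlier results of these data known, and the bins of GC content and the motifs after the values were seen. Named genes were, for each complex and resistant line, the 2 highest and 2 lowest log2FC, every SDE member, the 3 extremes in each direction of the parental and the interaction comparison, the genes of subunit c and complex II, NDUFA4, COX7A2L and the 3 highest and 3 lowest levels. ATP5H, ATP5I, ATP5J, ATP5S, NDUFA6, NDUFB5 and COX6A1 were named after their values were seen. As alternatives, the pseudocount was set to 0.1, the filter dropped, every library fitted together, the replicate number added as a block, the correction applied without and with that block, the genes limited to protein-coding ones, the values scaled by median of ratios or upper quartile, and each library left out. The replicate numbers did not pair the samples. Enrichment, quantitative PCR and protein data were not analysed here.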

Additional observations from a re-analysis of the deposited data

Results flagged for a closer look

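The response of 21 members differed between the lines by the interaction term in limma over the 12 libraries, at an adjusted p below 0.05 and an absolute difference above 1, criteria that 38% of all 12210 genes met. The values are the log2FC in CFPAC-1-GR minus that in BxPC-3-GR. In 18 of them the difference was negative, as it was past these criteria in 14.4% of all genes. In complex I these were NDUFB11 (−2.03), NDUFB7 (−1.86), NDUFS7 (−1.69), NDUFS8 (−1.66), NDUFA11 (−1.38), NDUFB4 (−1.302), NDUFV1 (−1.21), NDUFB9 (−1.17), NDUFB8 (−1.14), NDUFA13 (−1.13), NDUFA2 (−1.11) and NDUFA7 (−1.096). In complex III they were UQCRC1 (−1.65) and UQCRQ (−1.06), in complex IV COX8A (−1.76) and COX5B (−1.24), and in complex V ATP5D (−2.31) and ATP5G2 (−1.84). The 3 with a positive difference, against 23.6% of all genes, were NDUFA5 (1.38), UQCRC2 (1.07) and ATP5F1 (1.04). After the GC content and length correction 6 of the 21 were still past both criteria, NDUFB4 (−2.09), ATP5G2 (−2.05), NDUFB9 (−1.65), ATP5D (−1.24), NDUFB11 (−1.09) and NDUFS8 (−1.05). NDUFA5 (−0.020), NDUFA13 (−0.18) and NDUFA7 (−0.48) no longer passed the adjusted p, and the other 12 passed it with differences inside 1, among them NDUFV1 (−0.504), UQCRC2 (0.54) and ATP5F1 (0.297). Counted anew over the 73 members tested, 17 were past both criteria after the correction, all with a negative difference, against 18.4% of all genes. NDUFB4 had 1 BxPC-3-GR library at 16.05 FPKM beside 6.65 and 7.38, and NDUFA13 had 1 at 3.85 beside 10.7 and 10.4.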

How the results depend on the processing

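In BxPC-3-GR, the count of members that fell stayed between 22 and 27 and that of SDE members at 2 under the alternatives, and the count that rose was 4 with the correction and replicate block together. In CFPAC-1-GR, the count that rose was 1 with the GC content and length correction (also with the block), 6 with median-of-ratios and 5 with upper-quartile scaling, the SDE count was 35 with upper-quartile scaling, and the median log2FC was −0.77, −0.85 and −0.98 under these 3 settings. The median of the parental difference was 0.63 with median-of-ratios and 0.79 with upper-quartile scaling. The count with a larger log2FC in CFPAC-1-GR was 9 with the correction and 7 with either scaling. Reversed by the correction, with and without the block, were the CFPAC-1-GR log2FC of COX7B (−0.41), NDUFA5 (−0.45), NDUFS1 (−0.34), SDHC (−0.90), SDHD (−0.087), UQCRB (−0.84) and UQCRC2 (−0.15) and the interaction of NDUFA5 (−0.020). SDHC was also reversed by median-of-ratios (−0.013) and upper-quartile scaling (−0.12). The cause of these changes was not tested. The replicate block alone gave 26 members that fell and 3 that rose in BxPC-3-GR and 45 and 11 in CFPAC-1-GR, and no pair of same-numbered libraries had correlated deviations above 0.1. Leaving out 1 library gave 23 to 26 that fell in BxPC-3-GR, 43 to 49 in CFPAC-1-GR, and 24 to 30 SDE members between the parental lines. Levels below 1 FPKM and members with pseudogene copies are the least certain.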
